A study of Mus musculus with 12 samples.

Results

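Fibroblast growth factor (FGF) signalling was followed in cultured mouse chondrocytes through 10 genes chosen by symbol: the ligands Fgf2, Fgf7 and Fgf18, the receptors Fgfr1, Fgfr2 and Fgfr3, and the feedback regulators Spry1, Spry2, Spry4 and Dusp6. Each symbol matched a single Ensembl ID, so 10 of the 57010 IDs in the count tables were examined. Of these, 8 passed the filter on low counts, which left 14253 genes for testing. The IDs of Fgf2 and Fgf7 were listed at 0 in all 12 libraries.

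The 12 libraries were made from poly(A)-selected RNA of primary chondrocytes, the matrix-producing cells of cartilage, all with a wild-type genotype. They form 3 groups of 4: Control, WT (cells transfected with a plasmid labelled wild type, read here as wild-type SIRT5) and SIRT5F101L (cells transfected with a plasmid carrying the F101L mutant). SIRT5 is a sirtuin found mainly in mitochondria that takes malonyl marks off lysine residues, and the study asked how it acts on chondrocyte metabolism and osteoarthritis. The sources used here do not give the mouse strain, age or cartilage site, the time after transfection, whether control cells received an empty plasmid, or whether libraries of a group came from separate animals or cultures. In each comparison with Control, the transfection and what the plasmid encodes therefore cannot be told apart, and p-values measure the spread between these libraries, which may be technical.

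FGF ligands bind receptor tyrosine kinases together with heparan sulfate and signal through the RAS-ERK kinase cascade. ERK signalling in turn raises its own brakes: Sprouty proteins (Spry genes) restrain the cascade upstream of ERK, and DUSP6 is a phosphatase that inactivates ERK itself. In cartilage, FGFR3 is known for slowing growth plate chondrocytes, FGFR1 is associated with matrix breakdown in adult articular cartilage, and FGF18 is known as an anabolic ligand.

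The promoter-side sequence of members that moved together is shown first, because the results turn on regulators that rose (Dusp6, Spry2) and receptors that fell (Fgfr2, Fgfr3). RefSeq promoter sequences (build GRCm38.p6) matched 8 of the 10 members, at 9 annotated starts. The 250 bases before the start are given 5′ to 3′ on the gene's strand, for chr10:99262981-99263230 (plus strand, Dusp6), chr14:105896820-105897069 (minus strand, Spry2), chr7:130266809-130267058 (minus strand, Fgfr2) and chr5:33721474-33721723 (plus strand, the first of 2 starts of Fgfr3). Capitals mark matches to an NF-kB pattern (G 3 times, any 5 bases, C 2 times) on either strand, and adjoining matches can overlap.
Dusp6: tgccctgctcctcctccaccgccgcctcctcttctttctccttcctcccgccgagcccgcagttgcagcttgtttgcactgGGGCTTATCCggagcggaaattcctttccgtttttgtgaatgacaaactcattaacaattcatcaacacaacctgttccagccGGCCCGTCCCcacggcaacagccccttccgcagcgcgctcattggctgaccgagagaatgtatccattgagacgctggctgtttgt
Spry2: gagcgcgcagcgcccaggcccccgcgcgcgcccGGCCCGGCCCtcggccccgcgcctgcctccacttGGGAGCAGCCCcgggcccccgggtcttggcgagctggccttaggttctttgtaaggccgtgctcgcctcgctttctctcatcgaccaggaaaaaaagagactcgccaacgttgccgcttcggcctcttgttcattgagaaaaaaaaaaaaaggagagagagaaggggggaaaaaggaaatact
Fgfr2: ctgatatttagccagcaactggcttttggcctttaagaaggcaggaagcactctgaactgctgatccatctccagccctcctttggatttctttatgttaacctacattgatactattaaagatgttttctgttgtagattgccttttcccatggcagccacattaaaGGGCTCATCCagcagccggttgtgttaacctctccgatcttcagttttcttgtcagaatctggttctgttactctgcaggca
Fgfr3: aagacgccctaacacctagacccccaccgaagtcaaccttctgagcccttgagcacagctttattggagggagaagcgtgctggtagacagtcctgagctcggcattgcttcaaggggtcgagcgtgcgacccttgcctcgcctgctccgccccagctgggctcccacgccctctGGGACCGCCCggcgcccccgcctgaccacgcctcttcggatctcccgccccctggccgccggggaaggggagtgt
That pattern was found both before genes that rose (2 matches in Dusp6, 3 in Spry2) and before genes that fell (1 match in Fgfr2, 1 in Fgfr3), and it is held by 45.8% of 32851 promoters of the same length. In the windows not printed it had 2 matches in Spry1, which fell, and 3 in Fgf18, which was not called. The second start of Fgfr3 had 1 match, and Fgf2 and Fgf7 had 0. The other patterns searched on both strands were an ETS pattern CCGGAAG, the AP-1 site TGANTCA, the cyclic AMP element TGACGT and the STAT site TTCNNNGAA. They had 0 matches in the 9 windows, against 6.91%, 6.75%, 6.47% and 7.02% of promoters. The shorter run GGAA does occur in the windows of Dusp6 and Spry2, so the 0 for ETS applies to the full pattern CCGGAAG alone. G and C made up 44% of the window of Fgfr2, 56.4% for Dusp6, 62.4% for Spry2 and 66.8% for Fgfr3. A match describes letters in a window and marks no site.

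Libraries held 15095357 to 24242139 counts. Sirt5 had 9 to 16 counts in Control libraries, 1 to 9 in WT and 9 to 19 in SIRT5F101L, with no change called in any comparison, so the label check on the transfected gene showed no rise in counts. The first principal component separated Control (-75.3 to -72.1) from both plasmid groups (33.4 to 40.7). On the second, SIRT5F101L replicate 1 lay at 20.3, apart from the other SIRT5F101L libraries at -23.5 to -17.0 and beside WT libraries at -1.07 to 20.1. An exchanged label cannot be told apart from a library that differs within its group, so comparisons of SIRT5F101L with WT are also summarised without it. Summed chondrocyte markers (10 genes, of which Chad was listed at 0) ran from 9036 to 11339 CPM (counts per TMM-scaled library size, the unit of all levels below) in Control, 2813 to 2927 in WT and 2293 to 2538 in SIRT5F101L, with Col2a1 at 6719, 1665 and 1312 CPM. Of 9 tested chondrocyte markers 7 were called lower in each plasmid group, while Hapln1 was higher in both and Acan in WT. Fibroblast markers (8 genes) summed to 18552 to 22001, 7506 to 8586 and 7738 to 8660 CPM, with 5 of 7 tested lower and Pdgfra and Prg4 higher in both groups. Osteoblast markers summed to 62.6 to 72.0, 40.8 to 52.6 and 38.9 to 61.3 CPM, and macrophage markers to 173 to 206, 135 to 153 and 143 to 183 CPM, with Cd14 higher in both groups and 7 of 8 lower in WT and 6 of 8 in SIRT5F101L. Beside these marker calls, 28.1% of all tested genes were called lower and 28.7% higher in WT. In SIRT5F101L the shares of all tested genes were 30.7% lower and 30.0% higher. Endothelial markers summed to at most 9.98 CPM and adipocyte markers to at most 1.07 CPM in any library. The part of these marker shifts in the results below was not tested, and in bulk RNA fewer cells of a type cannot be told apart from less RNA per cell.

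Both plasmid groups differed from Control in 7 of the 8 tested members, with Dusp6, Spry4, Spry2 and Fgfr1 higher and Fgfr3, Fgfr2 and Spry1 lower, and in both groups the receptor pool shifted toward Fgfr1. Calls rest on edgeR's quasi-likelihood test, with a Benjamini-Hochberg adjusted p under 0.05 over all genes. The background was high: that rule called 56.8% of tested genes in WT against Control and 60.7% in SIRT5F101L against Control. A call with a change of at least 2-fold was made for 4 of the 8 members (Fgfr2, Fgfr3, Spry4 and Dusp6) in each comparison, against 16.7% and 17.5% of all genes. The groups did not overlap for the same 7 members, where 53.5% and 51.3% of all genes did not overlap. Both comparisons share the 4 Control libraries, so their values stand side by side and are not independent of each other.

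**Figure D1:**
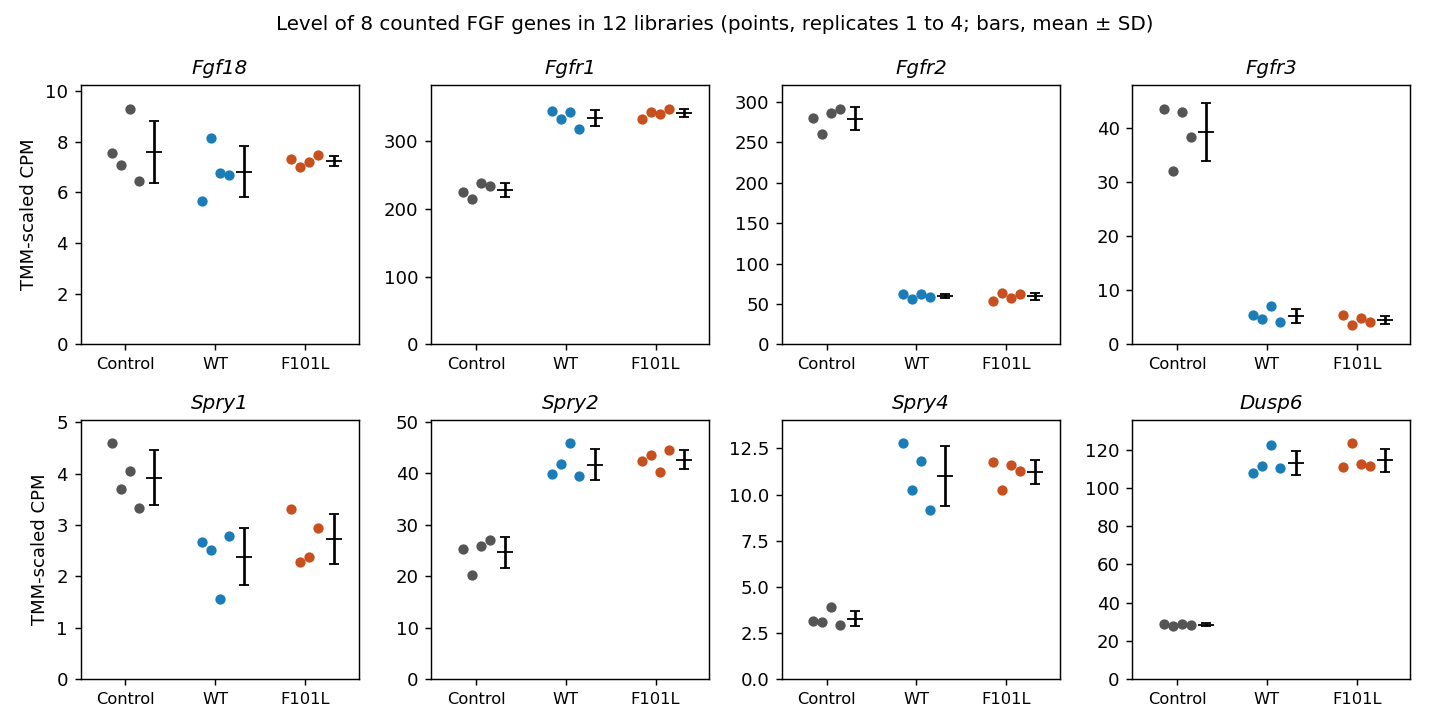
TMM-scaled CPM of the 8 counted members in each library, by group, with the mean ± SD beside the points. Dusp6, Spry4, Spry2 and Fgfr1 lie higher in all 8 plasmid libraries than in any Control library, Fgfr2, Fgfr3 and Spry1 lie lower in all 8, and the groups overlap for Fgf18.

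Among the ligands, Fgf18 was the member with a usable count, and its level was not called different in any comparison. It measured 7.55, 7.10, 9.32 and 6.45 CPM in Control replicates 1 to 4, 5.67, 8.15, 6.76 and 6.69 CPM in WT, and 7.32, 7.02, 7.22 and 7.48 CPM in SIRT5F101L. The groups overlapped, and the 4 SIRT5F101L libraries were the closest to each other. The log2 fold change was -0.16 (95% interval -0.45 to 0.12, edgeR adjusted p 0.325) for WT and -0.07 (-0.35 to 0.22, edgeR adjusted p 0.697) for SIRT5F101L, so a change of 1 log2 unit lies outside both intervals.

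Fgf2, which is stored in the matrix around chondrocytes, and Fgf7, a ligand of the epithelial form of FGFR2, gave no value. A count of 0 in every library cannot be read here as absence of the RNA, because B2m, Hif1a and Eid1, which cells use widely and which were picked after their values were seen, were also listed at 0 in all 12 libraries. No upper limit was therefore drawn from these zeros. Nudt6, whose exons overlap 9.44% of Fgf2 exon sequence on the opposite strand in GENCODE M21, was counted at 29 to 54 in Control libraries, 47 to 72 in WT and 49 to 92 in SIRT5F101L.

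Fgfr1, the receptor with the widest expression in mesenchymal cells, was higher in both plasmid groups. Its level was 225, 216, 239 and 233 CPM in Control, 345, 333, 343 and 318 CPM in WT, and 334, 343, 340 and 349 CPM in SIRT5F101L. Every plasmid library lay above every Control library. The rise was 1.47-fold in WT (log2 0.55, SE 0.05, edgeR adjusted p 2.95e-08) and 1.497-fold in SIRT5F101L (log2 0.58, SE 0.05, edgeR adjusted p 1.33e-08).

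Fgfr2, which takes part in bone and cartilage growth through its mesenchymal splice form, fell in both groups. Gene counts do not separate its splice forms. It measured 280, 260, 286 and 292 CPM in Control, 61.9, 56.5, 62.3 and 58.3 CPM in WT, and 53.6, 63.9, 57.6 and 62.2 CPM in SIRT5F101L. The lowest Control library stood far above the highest plasmid library. The level was 4.68-fold lower in WT (log2 -2.23, SE 0.07, edgeR adjusted p 2.55e-16) and 4.72-fold lower in SIRT5F101L (log2 -2.24, SE 0.07, edgeR adjusted p 2.24e-16).

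Fgfr3, a marker of growing chondrocytes as well as a brake on them, fell most among the members. Its level was 43.6, 32.1, 43.0 and 38.3 CPM in Control, 5.43, 4.62, 7.05 and 4.06 CPM in WT, and 5.35, 3.57, 4.89 and 4.14 CPM in SIRT5F101L. The plasmid libraries held 55 to 122 counts each, well over a floor of 3 counts, and did not overlap Control. It was 7.42-fold lower in WT (log2 -2.89, SE 0.15, edgeR adjusted p 1.24e-12) and 8.65-fold lower in SIRT5F101L (log2 -3.11, SE 0.15, edgeR adjusted p 4.45e-13). In GENCODE M21, 13.9% of Fgfr3 exon sequence lies under an antisense gene, G630022F23Rik, which averaged 0.129 CPM in Control and was listed at 0 in both plasmid groups. The strand setting of the counting is not given in the sources used here, and reads of antisense partners would not be told apart without it.

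The receptor balance was compared within each library, which does not depend on scaling. The log2 ratio of Fgfr1 to Fgfr3 counts was 2.37, 2.74, 2.47 and 2.61 in Control, 5.99, 6.16, 5.598 and 6.28 in WT, and 5.96, 6.57, 6.11 and 6.39 in SIRT5F101L. The plasmid groups did not overlap Control. The ratio rose by 3.46 log2 units in WT, an 11-fold change, and by 3.71 in SIRT5F101L, a 13.1-fold change (exact 2-sided permutation p 0.0286 in each, the smallest that 70 arrangements allow, 0.0429 adjusted over 3 comparisons). Fgfr1 lay higher and Fgfr3 lower in every plasmid library than in any Control library, so the ratio had to separate the groups. This p therefore adds no support beyond the results for each gene. With the counts divided by exon length, Fgfr1 made up 41.5% ± 0.732 (SD, n = 4) of the summed level of the 3 receptors in Control, 83.9% ± 0.599 in WT and 84.5% ± 0.506 in SIRT5F101L. The share of Fgfr2 was 48.7%, 14.3% and 14.0%, and that of Fgfr3 was 9.83%, 1.82% and 1.54%. The summed level of the 3 receptors was 55.7 ± 2.89 CPM per kb in Control, 40.4 ± 1.61 in WT and 41.0 ± 0.948 in SIRT5F101L.

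**Figure D2:**
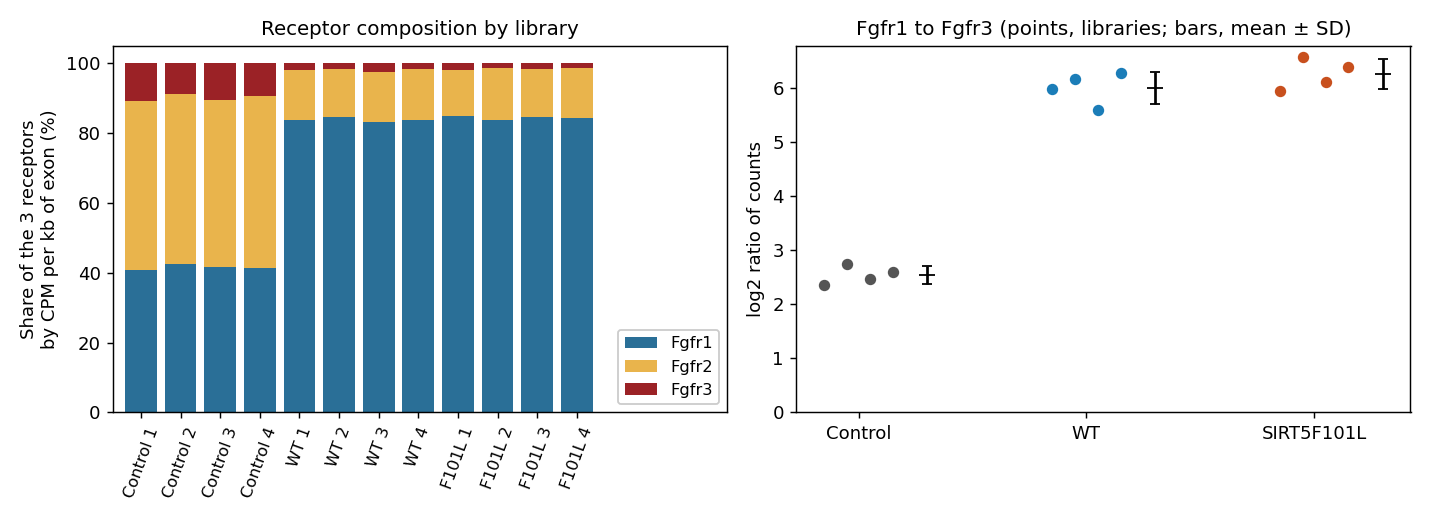
Left, the share of Fgfr1, Fgfr2 and Fgfr3 in their summed CPM per kb of exon for each library (%), stacked to 100. Right, the log2 ratio of Fgfr1 to Fgfr3 counts by group, with mean ± SD. Fgfr2 holds the largest share in the 4 Control libraries and Fgfr1 in the 8 plasmid libraries.

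Of the feedback regulators, Dusp6 rose most. It measured 28.9, 27.6, 29.0 and 28.5 CPM in Control, 108, 111, 123 and 111 CPM in WT, and 111, 124, 113 and 111 CPM in SIRT5F101L. The 4 Control libraries differed little from each other, with a coefficient of variation of 2.23%, and all plasmid libraries lay far above them. The rise was 3.98-fold in WT (log2 1.99, SE 0.06, edgeR adjusted p 6.58e-16) and 4.02-fold in SIRT5F101L (log2 2.01, SE 0.06, edgeR adjusted p 5.10e-16).

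The 3 Sprouty genes did not move alike. Spry4 rose from 3.14, 3.09, 3.89 and 2.95 CPM in Control to 12.8, 10.3, 11.8 and 9.16 CPM in WT and to 11.8, 10.3, 11.6 and 11.3 CPM in SIRT5F101L. This was a 3.37-fold change in WT (log2 1.75, SE 0.14, edgeR adjusted p 1.07e-09) and a 3.44-fold change in SIRT5F101L (log2 1.78, SE 0.14, edgeR adjusted p 7.43e-10), with no overlap. Spry2 was 25.2, 20.2, 25.8 and 27.1 CPM in Control, 39.9, 41.7, 45.8 and 39.4 CPM in WT, and 42.3, 43.5, 40.3 and 44.4 CPM in SIRT5F101L. Every plasmid library again lay above every Control library, with rises of 1.70-fold (log2 0.76, SE 0.09, edgeR adjusted p 2.62e-07) and 1.73-fold (log2 0.79, SE 0.09, edgeR adjusted p 1.32e-07).

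Spry1 went the other way, on lower counts. Its level was 4.59, 3.70, 4.05 and 3.33 CPM in Control, 2.66, 2.50, 1.56 and 2.78 CPM in WT, and 3.32, 2.27, 2.37 and 2.95 CPM in SIRT5F101L, from 27 to 79 counts a library. The highest SIRT5F101L library, at 3.32 CPM, lay just under the lowest Control library, at 3.33 CPM. It fell by 0.71 on the log2 scale in WT (SE 0.21, edgeR adjusted p 0.00657) and by 0.52 in SIRT5F101L (SE 0.21, edgeR adjusted p 0.0341). The call in SIRT5F101L rested on single libraries: the log2 fold change and edgeR adjusted p were -0.44 and 0.0978 without Control replicate 1, -0.51 and 0.0647 without Control replicate 3, -0.45 and 0.0857 without SIRT5F101L replicate 2, and -0.45 and 0.0964 without SIRT5F101L replicate 3. In GENCODE M21, 24.4% of Spry1 exon sequence lies under an antisense gene, Gm42922, which averaged 0.0537 CPM in Control and was listed at 0 in the plasmid groups.

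**Figure D3:**
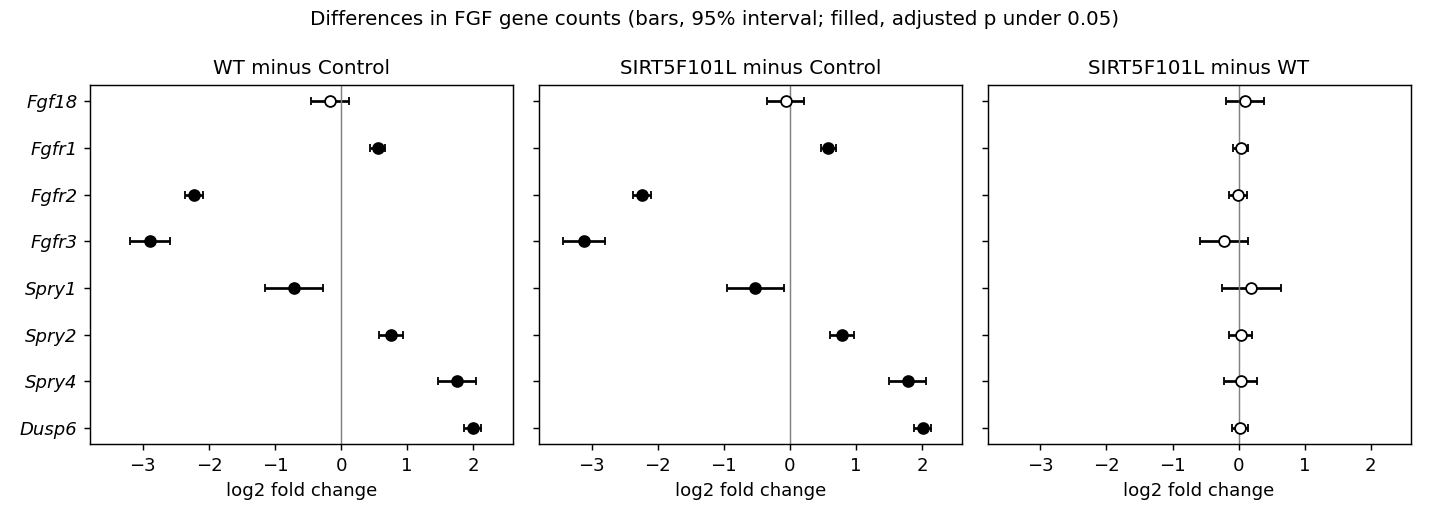
Log2 fold changes of the 8 counted members in the 3 comparisons, with 95% intervals; filled points have an edgeR adjusted p under 0.05. In both comparisons with Control, Fgfr3 and Fgfr2 lie far to the left and Dusp6 and Spry4 to the right, and in the comparison between the plasmids all 8 intervals cross 0.

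The mutant was then set directly against the wild-type plasmid. By edgeR's test 0 of the 8 tested members were called, 0 had an unadjusted p under 0.05, and DESeq2 also called 0 (of 7, since it gave Spry1 no adjusted p). Over all genes edgeR called 0.0421%, 11.9% had an unadjusted p under 0.05, and DESeq2 called 0.400%. The groups overlapped for all 8 members, while 4.02% of all genes had groups that did not overlap. The widest intervals on the log2 scale were those of Spry1 (0.19, -0.26 to 0.64, edgeR adjusted p 0.731) and Fgfr3 (-0.22, -0.58 to 0.14, edgeR adjusted p 0.594). The narrowest were those of Fgfr1 (0.03, -0.08 to 0.14, edgeR adjusted p 0.857) and Dusp6 (0.02, -0.11 to 0.14, edgeR adjusted p 0.934). For Fgfr2 the difference was -0.01 (-0.15 to 0.13), for Spry2 0.03 (-0.14 to 0.21), for Spry4 0.03 (-0.22 to 0.28) and for Fgf18 0.10 (-0.19 to 0.39). A difference of 1 log2 unit lies outside all 8 intervals, and 0 lies inside all 8. The log2 ratio of Fgfr1 to Fgfr3 was 0.25 higher in SIRT5F101L, with an exact permutation p of 0.286 (0.286 adjusted over 3 comparisons). Without SIRT5F101L replicate 1 it was 0.35 higher, with an exact permutation p of 0.171 (0.171 adjusted). Without SIRT5F101L replicate 1 the 8 differences ran from -0.30 to 0.10, and the lowest edgeR adjusted p was 0.245; against Control 7 members were still called.

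Levels of different members were compared per length, as CPM per kb of exon. In Control the order was Fgfr2 (27.1 ± 1.35, SD, n = 4), Fgfr1 (23.1 ± 1.03), Spry2 (11.8 ± 1.44), Dusp6 (9.09 ± 0.203), Fgf18 (6.41 ± 1.04), Fgfr3 (5.49 ± 0.742), Spry1 (1.35 ± 0.184) and Spry4 (0.687 ± 0.0887). Among neighbours in this order, the ranges overlapped for Fgf18 and Fgfr3 alone. In WT the order was Dusp6 (36.2 ± 2.06), Fgfr1 (33.9 ± 1.26), Spry2 (20.0 ± 1.41), Fgfr2 (5.78 ± 0.271), Fgf18 (5.74 ± 0.855), Spry4 (2.32 ± 0.340), Spry1 (0.818 ± 0.191) and Fgfr3 (0.739 ± 0.182), and the ranges of Dusp6 and Fgfr1, of Fgfr2 and Fgf18, and of Spry1 and Fgfr3 overlapped. In SIRT5F101L the order differed from that in WT by the exchange of Fgf18 (6.12 ± 0.164) and Fgfr2 (5.74 ± 0.450), whose ranges overlapped. Exon lengths came from GENCODE M21 (build GRCm38), not from GRCm39, the build that the submitters' processing notes name for the counts.

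The rest of the pathway was described through 6 lists with 95 genes, of which 72 were tested. In WT against Control 55 of the 72 were called, 44 higher and 11 lower, and in SIRT5F101L against Control 56, 43 higher and 13 lower. The background was 28.7% of genes called higher and 28.1% lower in WT, and 30.0% and 30.7% in SIRT5F101L. The median log2 fold change over the 72 genes was 0.38 in WT and 0.40 in SIRT5F101L, beside -0.01 and -0.02 over all tested genes. The lists were chosen with earlier results of these data known, so these counts and medians are a description and not a test. They include Fgf9 and Fgf21, which passed the filter through the groups where they were high. Of the 23 pathway genes that were not tested, 11 were listed at 0 in every library, 11 lay under the filter and 1 had no matching ID. The 11 at 0 include 7 on the X chromosome, where none of 2414 IDs had a count in any library, and the autosomal Fgf1, Fgf3, Fgf4 and Flrt3.

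**Figure D4:**
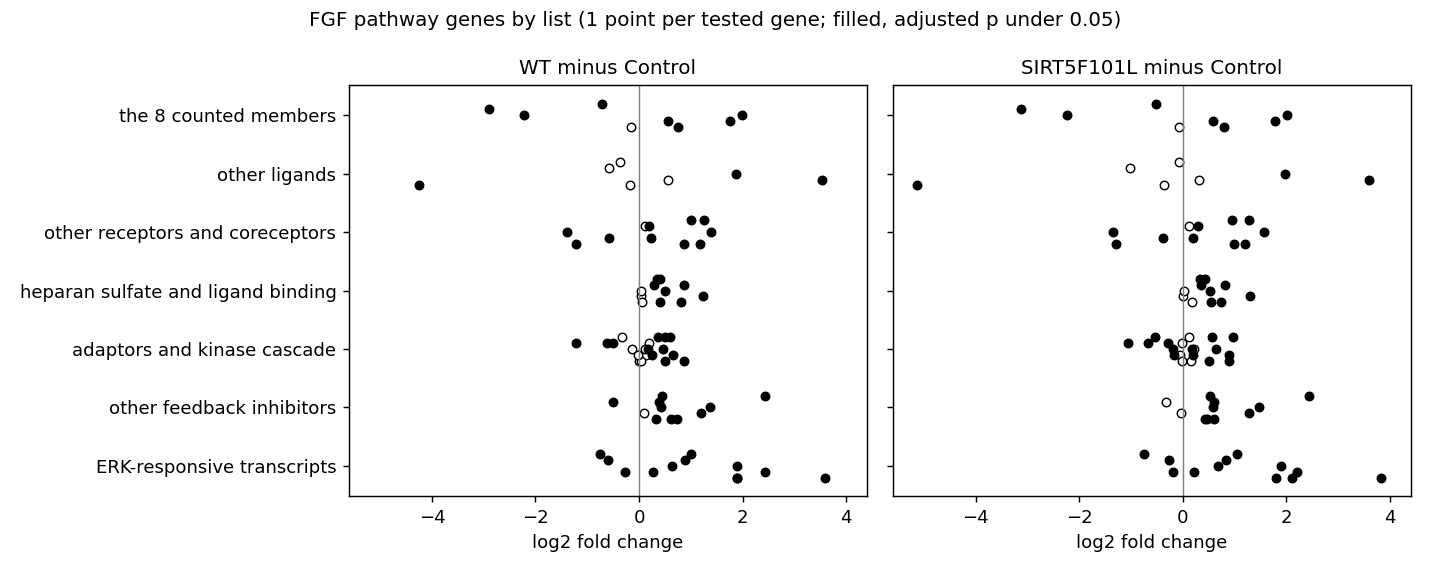
Log2 fold change against Control of each tested gene, by list, for WT (left) and SIRT5F101L (right); filled points have an edgeR adjusted p under 0.05. The top row holds the 8 counted members; in both panels all 11 points of the heparan sulfate list lie to the right of 0, and points of the receptor list spread to both sides.

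Of 19 other FGF genes 7 were tested; 2 were called higher and 1 lower in each plasmid group. Of these 3, Fgf9 and Fgf21 were counted so low in 1 or more groups that they passed the filter through the groups where they were high, so the count is given as a description. Fgf10, which signals through the epithelial form of FGFR2, measured 33.2, 34.8, 36.1 and 29.5 CPM in Control, 130, 116, 128 and 116 CPM in WT, and 115, 139, 136 and 134 CPM in SIRT5F101L. It rose 3.67-fold in WT (log2 1.87, SE 0.08, edgeR adjusted p 3.51e-14) and 3.93-fold in SIRT5F101L (log2 1.97, SE 0.08, edgeR adjusted p 1.49e-14), with no overlap. Fgf9, a ligand that activates FGFR3, was counted 1, 5, 9 and 4 times in Control libraries, 72, 52, 38 and 59 times in WT, and 73, 35, 75 and 61 times in SIRT5F101L. Its fitted log2 fold changes of 3.53 and 3.60 rest on Control counts near the floor and are given as a description, without a p-value. Fgf21, a hormone-like FGF, went from 59, 62, 61 and 38 counts in Control to 9, 0, 0 and 2 in WT and 4, 0, 2 and 0 in SIRT5F101L. Because it passed the filter through Control, these counts are a description without a p-value, and the size of the change is uncertain. Fgf14, which acts inside cells and is not secreted, had log2 fold changes of -0.36 and -0.07 (edgeR adjusted p 0.204 and 0.825).

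Other receptors and co-receptors moved both ways, 7 higher and 3 lower of 11 tested in each group. Fgfrl1, a receptor that lacks the kinase domain, fell from 91.6 ± 3.88 CPM (SD, n = 4) to 39.6 ± 1.47 in WT and 37.6 ± 2.06 in SIRT5F101L. Sdc2, a heparan sulfate proteoglycan of the cell surface, fell from 778 ± 36.5 to 298 ± 7.92 and 305 ± 14.5 CPM. Gpc1, another cell-surface proteoglycan, rose from 203 ± 11.8 to 461 ± 13.1 and 466 ± 29.9 CPM, although 18.9% of its exon sequence overlaps an antisense gene. Cdh2, the N-cadherin gene, whose product binds FGFR1, rose from 46.6 ± 2.74 to 111 ± 2.18 and 114 ± 5.67 CPM. The edgeR adjusted p of these 4 genes ran from 3.51e-14 to 1.83e-12 in WT.

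Genes for heparan sulfate synthesis, trimming and ligand binding were called in 1 direction: 8 of 11 tested were higher and 0 lower in each group. Sulf1, which removes 6-O-sulfate groups from heparan sulfate, rose from 342 ± 33.9 CPM (SD, n = 4) to 806 ± 32.4 in WT and 843 ± 26.3 in SIRT5F101L. Hs6st1, which adds such groups, rose from 18.9 ± 1.75 to 33.3 ± 2.16 and 31.8 ± 4.12 CPM. The sulfotransferase Ndst2 and the chain-building enzyme Ext1 had log2 fold changes of 0.88 and 0.41 in WT and 0.82 and 0.55 in SIRT5F101L. The edgeR adjusted p of these 4 genes ran from 3.56e-12 to 7.07e-06 in WT.

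The adaptor and kinase list was nearest to the background, with 12 of 20 tested genes called in WT (9 higher, 3 lower) and 14 in SIRT5F101L (8 higher, 6 lower). Gab1, a docking protein under the receptor, fell from 36.4 ± 3.40 CPM (SD, n = 4) to 15.7 ± 1.14 and 17.6 ± 2.88. The kinase genes of the cascade split: Map2k1 (MEK1) rose by 0.50 and 0.51 on the log2 scale, while Mapk3 (ERK1) fell by 0.62 and 0.67. The edgeR adjusted p of these 3 genes ran from 6.48e-09 to 1.15e-07 in WT.

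On the list of other feedback genes, 9 of 11 tested were higher in each group, with 1 lower in WT and 0 lower in SIRT5F101L; the 9 include Lgals3, which encodes a galectin and is not an inhibitor of FGF signalling in the sense of the others. Dusp4, a phosphatase related to Dusp6, measured 2.91, 1.98, 2.29 and 2.13 CPM in Control, 13.8, 12.8, 12.5 and 11.1 CPM in WT, and 12.1, 9.94, 14.6 and 13.7 CPM in SIRT5F101L. It rose 5.41-fold in WT (log2 2.44, SE 0.15, edgeR adjusted p 3.33e-11) and 5.44-fold in SIRT5F101L. Spred2 and Spred3, which share the Sprouty domain, rose 2.30-fold and 2.59-fold in WT and 2.42-fold and 2.76-fold in SIRT5F101L. Lgals3 rose 1.66-fold and 1.376-fold.

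Transcripts that respond to ERK were all called, 9 of 12 higher and 3 lower in each group. Etv1, an ETS factor induced by FGF in many tissues, measured 2.85, 3.85, 3.36 and 2.51 CPM in Control, 42.8, 34.9, 39.8 and 34.4 CPM in WT, and 38.3, 51.4, 45.4 and 44.2 CPM in SIRT5F101L. It rose 12.02-fold in WT (log2 3.59, SE 0.13, edgeR adjusted p 4.46e-15) and 14.2-fold in SIRT5F101L (log2 3.83, SE 0.13, edgeR adjusted p 1.47e-15). Its relative Etv4 rose 5.43-fold and 4.63-fold, and the early response gene Ier3 3.71-fold and 3.74-fold. Fosl1, an AP-1 subunit, rose 3.71-fold and 3.51-fold, but 57.2% of its exon sequence overlaps an antisense gene. The 3 genes that fell, named after their values were seen, were the immediate-early genes Egr1, Fos and Ier2. Egr1 averaged 208 ± 11.7 CPM (SD, n = 4) in Control, 138 ± 10.96 in WT and 174 ± 13.2 in SIRT5F101L, and Fos 138 ± 18.4, 82.1 ± 6.85 and 82.1 ± 2.65 CPM. Many genes of this list, like Dusp6 and Spry4, are known to respond to other growth factor signals as well.

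Between the plasmids, edgeR called 0 of the 72 pathway genes, against 0.0421% of all genes. An unadjusted p under 0.05 was found for 10 of the 72, against 11.9% of all genes. Egr1 was the 1 gene of the 72 whose groups did not overlap, at 123 to 149 CPM in WT and 156 to 188 CPM in SIRT5F101L (log2 difference 0.33, edgeR adjusted p 0.107). Over all genes, 4.02% had groups that did not overlap, so these counts are not read as a result about the pathway. With no filter beyond 1 count, edgeR called Egr1 and Lgals3, against 1.38% of all genes. Without SIRT5F101L replicate 1 the test called 14 pathway genes, 11 higher and 3 lower in SIRT5F101L, against 15.2% of all genes. Egr1 (0.38, edgeR adjusted p 9.22e-05) and Lgals3 (-0.39, edgeR adjusted p 7.15e-05) had the lowest adjusted p among these.

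Genes with the most similar pattern over the 12 libraries were sought among 9788 or 9789 tested genes whose mean reached 5 CPM. Genes with a Gm number, a symbol ending in Rik or no symbol were left out of this search. Similarity was measured by the root-mean-square difference in log2 CPM after each gene was centred on its own mean. The nearest to Dusp6 were Hsph1 (0.05 log2 units) and Bdnf (0.07), and to Spry2 were Eif4g1 (0.07) and Ptgfrn (0.07). Spry4 was nearest to Smox and Slc39a14 (0.14 each), and Fgfr1 to Otud7b (0.05) and Ltbp1 (0.06). Fgfr2 was nearest to Efemp1 (0.06) and Nid2 (0.07). Fgfr3 was nearest to Adra1b (0.19) and to Fmod (0.20), a matrix proteoglycan of cartilage. Spry1 was nearest to the pseudogenes Rpl17-ps10 and Rpl9-ps4 (0.18 each), and Fgf18 to Med8 (0.10) and Bloc1s3 (0.11). The members' own spread about their mean was 0.17 log2 units for Fgf18, 0.27 for Fgfr1, 0.38 for Spry2, 0.39 for Spry1, 0.83 for Spry4, 0.94 for Dusp6, 1.05 for Fgfr2 and 1.43 for Fgfr3.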

How the data were processed

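Each library has 1 deposited table of raw counts, keyed by Ensembl ID. Per the submitters' processing notes, FastQC 0.11.9, HISAT2 2.2.1, HTSeq 2.0.2, DESeq2 1.38.3 and the build GRCm39 were used; the annotation release and strand setting are not given in the sources used here. Per the labels' protocols, libraries were poly(A)-selected and read as 150 bp pairs. Symbols for 52029 of 57010 IDs came from a supplied name table. Counts were scaled by TMM, filtered with filterByExpr and fitted in edgeR 4.0.16 (R 4.3.3) with a mean per group over 12 libraries (9 residual degrees of freedom). A 95% interval is the fold change ± its standard error times the t quantile of the fit. The script was tested on simulated data. Ratios had 0.5 counts added. Members and lists were chosen with earlier results of these data known. The text names all members, the 4 genes of each pathway list with the lowest p in WT against Control, and the 2 genes nearest to each member. For 1 gene of the adaptor and kinase list the values are not reported here. Alternatives were RLE and upper-quartile scaling, 2 other filters, fits of 8 libraries, DESeq2 1.42.0 and leaving out each library.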

Additional observations from a re-analysis of the deposited data

Results flagged for a closer look

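Each member's level and the ratio of Fgfr1 to Fgfr3 were screened in each group for a library far from the other 3, by the ratio of its gap to the group's range. Of 27 sets screened 1 exceeded Dixon's critical value at the 95% level, where chance gives about 1.35. It was the level of Dusp6 in SIRT5F101L replicate 2, at 123.5 CPM, against 111 to 113 CPM in the other SIRT5F101L libraries (ratio 0.857, from 4 libraries). Without this library the log2 fold change of Dusp6 against Control was 1.97, beside 2.01 with it.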

How the results depend on the processing

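Of 288 member fold changes against Control under the alternatives, 283 kept both their direction and their side of the threshold. Of the other 5, 4 are those of Spry1 in SIRT5F101L, each with a library left out, where its edgeR adjusted p reached 0.0978, and 1 is that of Fgf18 in SIRT5F101L, not called, which changed sign without Control replicate 3 (range -0.140 to 0.0454 with a library left out). The count of members called was 7 in WT under all 18 alternatives and 6 or 7 in SIRT5F101L. Between the plasmids it was 0 under all 18; of 144 member differences, 143 had an adjusted p, none under 0.05 (DESeq2 gave none for Spry1), and 8 uncalled ones changed sign when a library was left out, with ranges of -0.0490 to 0.0335 for Fgfr2, -0.0527 to 0.111 for Spry4 and -0.0215 to 0.0560 for Dusp6. Pathway genes called numbered 54 to 58 in WT and 54 to 60 in SIRT5F101L, against 55 and 56. Between the plasmids this number was 2 with no filter beyond 1 count (Egr1 and Lgals3, against 1.38% of all genes), 1 with DESeq2 (Egr1, against 0.400%), and 0 to 14 when a library was left out, with 14 without SIRT5F101L replicate 1; the cause was not tested. Against Control, the log2 ratio of Fgfr1 to Fgfr3 rose by 3.37 to 3.60 in WT and 3.61 to 3.81 in SIRT5F101L when a library was left out, and by 2.85 and 2.90 with Fgfr2 added to Fgfr3. No paired analysis was run, because the labels give no pairing. Equal replicate numbers in different groups are not said to mean a shared animal or culture. Among the tested members Spry1 had the fewest counts, 27 to 79 a library, and the largest standard errors.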

Other observations

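Fgfr4, the remaining FGF receptor with a kinase domain, lay under the filter on low counts and was not tested. It was counted 10, 8, 18 and 18 times in Control libraries, 0, 2, 5 and 1 times in WT, and 2, 0, 2 and 3 times in SIRT5F101L. Fgf12, which acts inside cells, was counted 9, 14, 9 and 15 times in Control, 3, 8, 1 and 4 times in WT, and 4, 4, 3 and 6 times in SIRT5F101L, and was not tested either. Fgfbp1, a secreted carrier of FGF ligands, was counted 0 to 2 times in Control libraries, 3 to 9 times in WT and 1 to 4 times in SIRT5F101L. Counts of 3 or fewer have no order, and no fold is given for these genes.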
